A study of Mus musculus with 15 samples.

Results

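Glucocorticoid hormone signalling in the cortex of *Snord116del* and WT mice was examined through 10 genes of the RNA-seq table. They are the receptor genes *Nr3c1* and *Nr3c2*, the receptor-regulated genes *Fkbp5*, *Sgk1*, *Tsc22d3*, *Zbtb16*, *Cdkn1a* and *Pdk4*, and the metallothionein genes *Mt1* and *Mt2*. The genes were chosen by name for their known place in the glucocorticoid response, and all 10 were found among the 23235 genes of the table. Levels are in FPKM, a count of sequenced fragments scaled by transcript length and library size. Averaged over the groups, 9 of the genes reached 1 FPKM, and they were read against the 10297 genes of the table that did so (the tested genes). *Pdk4* fell just under that minimum, with a mean of 0.966 FPKM, and is given as values.

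The *Snord116del* mice carry a deletion of the *Snord116* small nucleolar RNA cluster in the locus of Prader-Willi syndrome, strain B6(Cg)-Snord116tm1.1Uta/J, heterozygous (+/-) with the deletion inherited from the father, and the WT mice are C57BL/6J. All were adult males, and the deletion is present in every cell rather than in chosen cell types. Dissected cortex was sequenced from 3 WT and 2 *Snord116del* mice at Zt +6 and from 2 WT and 2 *Snord116del* mice at Zt +16. Zt (Zeitgeber time) counts the hours after lights on, so the first time lies in the light phase and the second in the dark phase. The table holds 1 value per group and no value per mouse, so the spread between mice is unknown and no difference below has a test, an SD or an SE. The labels of 3 of the mice at Zt +6 (1 WT and 2 *Snord116del*) name an earlier table, so which mice each Zt +6 value pools is taken from the study's methods and is not stated in the table itself. Whether the values of both times came from 1 run of the software is not stated, and levels across times are set side by side with that limit. The study also made ChIRP-seq libraries, in which biotinylated oligos pull the long non-coding RNA *116HG* of the deleted locus out of adult brain chromatin together with the DNA beside it.

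Corticosterone, the main glucocorticoid of mice, rises towards the dark phase. It enters cells and binds the mineralocorticoid receptor (*Nr3c2*), which holds it tightly, and the glucocorticoid receptor (*Nr3c1*), which is filled mainly when hormone is high. The bound receptor leaves its chaperone complex, moves into the nucleus and binds response elements with 2 mirrored arms, where it raises genes such as *Fkbp5*, *Sgk1*, *Tsc22d3* and *Zbtb16*. The hormone itself was not measured here.

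At Zt +6, 5 of the 9 tested genes were higher in the *Snord116del* cortex, led by both receptor genes and *Zbtb16*, where 49.3% of all tested genes were higher, and *Mt1* was lower, where 7.62% were. At Zt +16, 4 genes were higher, namely *Mt1*, *Mt2*, *Sgk1* and *Tsc22d3*, where 19% of all tested genes were. From Zt +6 to Zt +16, *Tsc22d3* and *Zbtb16* had lower values in both genotypes and *Mt1* had higher values in both. Of all tested genes, 10.3% were lower and 5.71% higher over time in WT, and 39.1% were lower and 25% higher in *Snord116del*. A gene is called higher or lower when FPKM + 1 differed at least 1.5-fold between the groups, with at least 1 FPKM in the higher one, and log2 differences are of FPKM + 1, which understates changes of genes with low values.

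**Figure D1:**
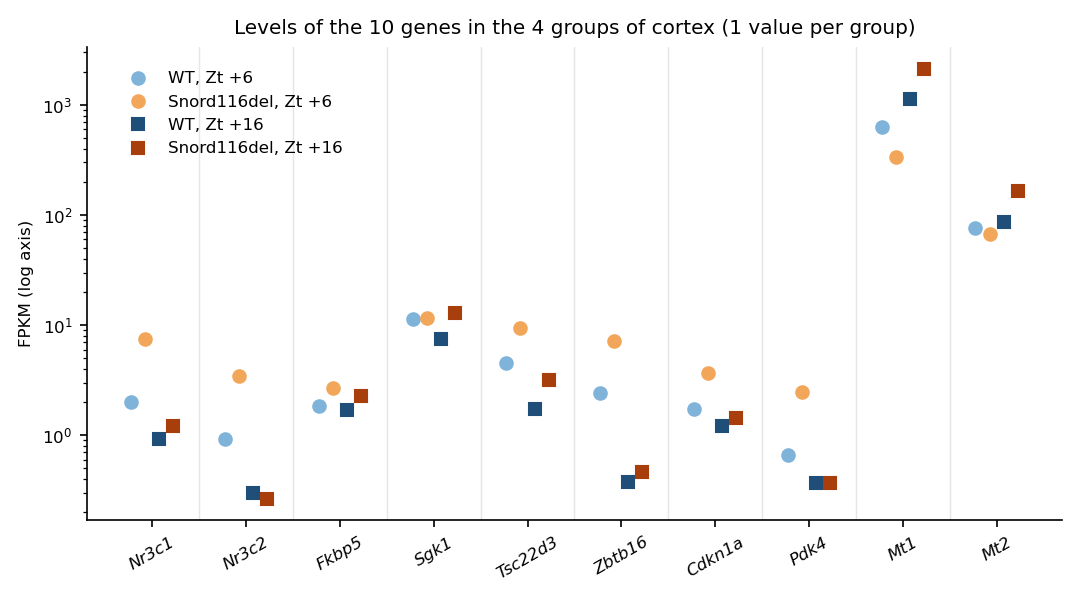
Levels of the 10 genes on a log axis of FPKM, with 1 point per group (circles Zt +6, squares Zt +16, blue WT, orange *Snord116del*). *Mt1* and *Mt2* sit far above the rest, and the *Snord116del* group at Zt +6 has the highest point for *Nr3c1*, *Nr3c2*, *Fkbp5*, *Tsc22d3*, *Zbtb16*, *Cdkn1a* and *Pdk4*.

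*Nr3c1* encodes the glucocorticoid receptor and lies at chr18:39570199-39650955 on the minus strand (mm9). Its level was 2.02 FPKM in WT and 7.46 FPKM in *Snord116del* cortex at Zt +6. At Zt +16 it was 0.916 FPKM in WT and 1.21 FPKM in *Snord116del* cortex. The *Snord116del* group at Zt +6 thus stood above the other 3 groups. The receptor gene was 3.70 times higher in *Snord116del* at Zt +6, a log2 difference of 1.49 that was larger than that of 93.5% of tested genes. The difference at Zt +16 was 0.20 and did not pass the fold rule. Between the times it was lower at Zt +16 by the rule in both genotypes, with log2 differences of -0.66 in WT and -1.94 in *Snord116del*. In bulk cortex, fewer cells of a type and less RNA per cell cannot be told apart.

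*Nr3c2*, the mineralocorticoid receptor gene (chr8:79423341-79768911, plus strand), had the same order of groups except at the low end. It measured 0.914 FPKM in WT and 3.43 FPKM in *Snord116del* at Zt +6, against 0.299 and 0.265 FPKM at Zt +16. Its level in *Snord116del* was 3.75 times that in WT at Zt +6 (log2 difference 1.21), and at Zt +16 the values of the genotypes differed by -0.04 on the log2 scale. The change from Zt +6 to Zt +16 was -1.81 in *Snord116del*, a call by the fold rule. In WT it was -0.56, where the level at Zt +6 was 3.06 times that at Zt +16. No call was possible there, because the higher WT value was under the 1 FPKM that the rule asks for. With the groups scaled to the same median (-0.60) or the same total (-0.79), *Nr3c2* was called lower in WT. *Nr3c1* and *Nr3c2* were the closest pair among all pairs of the 10 genes, with a root mean square distance of 0.14 between their log2 profiles over the 4 groups after centring. *Nr3c1* was the higher of the receptor genes in each group on this per-length scale.

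*Fkbp5* encodes FKBP51, a co-chaperone of the receptor that lowers its affinity for hormone and is itself induced by it. The gene lies at chr17:28536040-28654469 on the minus strand. It measured 1.85 FPKM in WT and 2.69 FPKM in *Snord116del* at Zt +6, and 1.69 and 2.29 FPKM at Zt +16. Within each time the *Snord116del* value was above the WT value, and within each genotype the Zt +6 value was above the Zt +16 value. None of the 4 differences passed the fold rule, and they ran from -0.17 to 0.37 on the log2 scale. With the groups scaled to the same median, the genotype differences turned to -0.20 at Zt +6 and -0.02 at Zt +16. *Fkbp5* was therefore the gene of the list with the narrowest range.

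*Sgk1* encodes a kinase that regulates ion channels and is a classic target of both receptors. It spans chr10:21601990-21719709 on the plus strand. Its level was 11.3 FPKM in WT and 11.6 FPKM in *Snord116del* at Zt +6, and 7.47 and 12.8 FPKM at Zt +16. The WT group at Zt +16 was the low one, and the other 3 lay close together. *Sgk1* was called higher in *Snord116del* at Zt +16 (1.71 times, log2 difference 0.70), and at Zt +6 the genotypes differed by 0.04. The call at Zt +16 was lost with the groups scaled to the same median (0.28) or the same total (0.10), after quantile normalization (0.18) and without the trend with transcript length (0.35). Scaling the groups to the same median turned that small difference at Zt +6 into a lower call, at -0.72. Towards Zt +16 *Sgk1* differed by -0.53 in WT, short of the rule, and by 0.12 in *Snord116del*, which turned to -0.88 with the groups scaled to the same total.

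The promoter windows of *Sgk1* show what a receptor site looks like, and the window below, of the 6 that RefSeq lists for this gene, holds both arms of one. It covers the 250 bases before the start at chr10:21993640-21993889 of GRCm38.p6, plus strand, and capitals mark each match to the arm AGAACA on either strand (TGTTCT when read on the other one). The matches at -189 and -180 from the start form the paired element with 3 bases between them, and its core also fits the spaced pattern ACANNNTGT.
*Sgk1* promoter: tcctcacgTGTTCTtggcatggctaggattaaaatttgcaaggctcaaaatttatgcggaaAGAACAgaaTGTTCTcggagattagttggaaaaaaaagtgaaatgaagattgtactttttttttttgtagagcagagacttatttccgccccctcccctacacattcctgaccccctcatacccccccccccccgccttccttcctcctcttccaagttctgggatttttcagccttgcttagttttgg
On windows of the same length, ACANNNTGT was found on either strand in 3 of the 16 windows of these genes and in 5.84% of all 32851 RefSeq windows. AGAACA was found in 4 of the 16 and in 16.1% of all, and the E-box CACGTG of the clock proteins was found in 2 of the 16 and in 6.02% of all. Windows were listed for 8 of the 10 genes, and *Zbtb16* and *Nr3c1* had no entry. *Sgk1* alone has 6 of the 16 windows, so the counts are not per gene. By gene, ACANNNTGT was found only at *Sgk1* and *Mt1*, AGAACA only at *Sgk1* and *Tsc22d3*, and the E-box only at *Sgk1* and *Fkbp5*. A match is a run of letters and was not measured as a bound site.

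*Tsc22d3* encodes GILZ, a leucine zipper protein that carries part of the anti-inflammatory action of glucocorticoids (chrX:137074067-137135198, minus strand). It measured 4.56 FPKM in WT and 9.41 FPKM in *Snord116del* at Zt +6. At Zt +16 it measured 1.73 and 3.19 FPKM. *Snord116del* was above WT at each time, by 2.06 times at Zt +6 and 1.85 times at Zt +16, and *Tsc22d3* was the only one of the 9 tested genes called higher in *Snord116del* at both times. The log2 differences were 0.90 and 0.62. Both calls were lost with the groups scaled to the same median (0.18 and 0.30), after quantile normalization (0.33 and 0.26) and without the length trend (0.40 and 0.25), and the call at Zt +16 also with the same total (0.15). It was lower at Zt +16 than at Zt +6 in both genotypes, with a log2 difference of -1.03 in WT, where only 2.13% of tested genes had a larger fall, and of -1.31 in *Snord116del*.

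*Zbtb16* encodes PLZF, a zinc finger repressor strongly induced by glucocorticoids in many cells (chr9:48462416-48644050, minus strand). Its levels were 2.41 FPKM in WT and 7.13 FPKM in *Snord116del* at Zt +6, against 0.372 and 0.459 FPKM at Zt +16. Both groups at Zt +16 were far below both groups at Zt +6. WT cortex held 6.46 times more *Zbtb16* at Zt +6 than at Zt +16, and *Snord116del* cortex 15.5 times more. On the log2 scale the changes towards Zt +16 were -1.31 and -2.48, and only 0.796% of tested genes had a larger fall in WT. The genotypes differed by 1.26 at Zt +6 and by 0.09 at Zt +16.

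*Cdkn1a* encodes the cell cycle inhibitor p21, a target of p53 that glucocorticoids also raise (chr17:29227924-29237667, plus strand). It measured 1.74 and 3.66 FPKM in WT and *Snord116del* at Zt +6, and 1.20 and 1.43 FPKM at Zt +16. It was called higher in *Snord116del* at Zt +6 (log2 difference 0.77) and lower at Zt +16 than at Zt +6 in *Snord116del* (-0.94). The first call was lost with a 2-fold rule, the same median (0.17), quantile normalization (0.09) and without the length trend (0.52). The second was lost with a 2-fold rule, the same median (-0.57) and quantile normalization (-0.32). *Pdk4* encodes a kinase that shuts off pyruvate dehydrogenase in fasting (chr6:5433351-5446309, minus strand). It measured 0.664 FPKM in WT and 2.46 FPKM in *Snord116del* at Zt +6, and 0.371 and 0.370 FPKM at Zt +16. Only the *Snord116del* group at Zt +6 exceeded 1 FPKM, and without the minimum on the mean *Pdk4* was called higher there than in WT (1.06) and than in *Snord116del* at Zt +16 (-1.34 towards the later time).

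*Mt1* and *Mt2* encode the small cysteine-rich proteins that bind zinc and copper, and both metals and glucocorticoids induce them. They are neighbours on the plus strand, *Mt2* at chr8:96696518-96697467 and *Mt1* at chr8:96702989-96704225. *Mt1* measured 629.9 FPKM in WT and 338 FPKM in *Snord116del* at Zt +6, and 1124 and 2138 FPKM at Zt +16. The order of the genotypes was opposite at the 2 times, with a log2 difference of -0.90 at Zt +6 and 0.93 at Zt +16, and the difference between these was not tested. After quantile normalization these were -0.15 and 0.12, and without the length trend -0.36 and 0.30, so that neither passed the rule. The *Mt1* call at Zt +16 was also lost with the same median (0.46) and the same total (0.27). *Mt2* measured 75.6 and 67.6 FPKM in WT and *Snord116del* at Zt +6, and 86.7 and 166 FPKM at Zt +16. Its genotype difference was -0.16 at Zt +6, not past the rule, and 0.93 at Zt +16, where the call was lost under the same 4 settings (0.27 to 0.47). From Zt +6 to Zt +16 *Mt1* was higher by 0.83 in WT and 2.66 in *Snord116del*, and *Mt2* by 1.28 in *Snord116del* with 0.20 in WT. The *Mt1* call in WT was lost after quantile normalization (0.14), with the same total (0.39) and without the length trend (0.47), and that in *Snord116del* after quantile normalization (0.42). Once the trend with transcript length was taken out, the *Mt2* change in *Snord116del* turned to -0.34.

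The metallothionein promoters are shown because the metal-responsive factor MTF1 acts on a known short core, TGCNCNC. Both windows are the 250 bases before the RefSeq start on the plus strand of GRCm38.p6, chr8:94172368-94172617 for *Mt2* and chr8:94178839-94179088 for *Mt1*, and capitals mark the core on either strand. The *Mt2* window held 5 matches and the *Mt1* window 1. Bases after the listed start were not searched, so these are counts for the windows and not for whole promoters. The core is common, since 44.4% of all 32851 windows held at least 1 match, as did 7 of the 16 windows of these genes.
*Mt2* promoter: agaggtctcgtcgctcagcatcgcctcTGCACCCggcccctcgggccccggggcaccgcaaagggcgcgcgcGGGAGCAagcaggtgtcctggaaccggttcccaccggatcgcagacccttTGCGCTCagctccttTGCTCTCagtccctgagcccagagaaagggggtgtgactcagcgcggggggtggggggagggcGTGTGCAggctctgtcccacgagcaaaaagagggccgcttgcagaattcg
*Mt1* promoter: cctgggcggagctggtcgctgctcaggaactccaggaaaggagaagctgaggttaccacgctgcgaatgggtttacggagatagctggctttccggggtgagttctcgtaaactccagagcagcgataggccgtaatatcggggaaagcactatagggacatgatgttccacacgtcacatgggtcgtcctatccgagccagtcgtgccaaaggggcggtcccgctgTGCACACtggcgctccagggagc
The *Mt1* window also held 1 match to ACANNNTGT, at -92 from the start.

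Set against the whole table, the calls of the 9 genes were read beside a large background. At Zt +6, 5 were higher (*Nr3c1*, *Zbtb16*, *Nr3c2*, *Tsc22d3* and *Cdkn1a*) where 49.3% of the 10297 tested genes were higher, and 1 was lower (*Mt1*) where 7.62% were lower. The median log2 difference of the 9 genes was 0.77, and that of all tested genes was 0.57. The count of higher genes is near the background share. With the groups scaled to the same median the split was 2 higher and 3 lower, and after quantile normalization 3 higher and 0 lower. At Zt +16, 4 were higher (*Mt2*, *Mt1*, *Sgk1* and *Tsc22d3*) where 19% of tested genes were higher, and 0 were lower where 0.204% were lower, with medians of 0.29 for the 9 genes and 0.35 for all.

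From Zt +6 to Zt +16 in WT, 3 of the 9 genes were lower (*Zbtb16*, *Tsc22d3* and *Nr3c1*) where 10.3% of tested genes were lower. In the same comparison 1 was higher (*Mt1*) where 5.71% were higher, and the median was -0.53 against -0.04 for all tested genes. In *Snord116del*, 5 were lower (*Zbtb16*, *Nr3c1*, *Nr3c2*, *Tsc22d3* and *Cdkn1a*) where 39.1% of tested genes were lower, and 2 were higher (*Mt1* and *Mt2*) where 25% were higher. The median was -0.94 against -0.24 for all. Each group enters 2 of these 4 comparisons, so the *Snord116del* values at Zt +6 set both the differences from WT and the fall towards Zt +16.

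**Figure D2:**
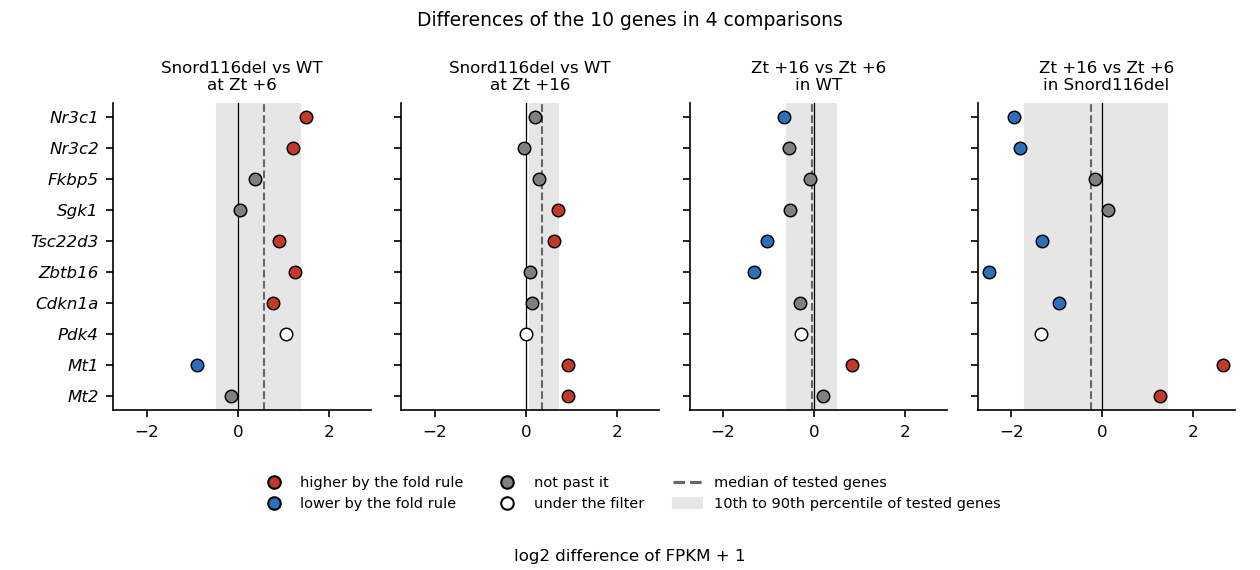
Log2 differences of FPKM + 1 of the 10 genes in the 4 comparisons, with the median (dashed) and the span from the 10th to the 90th percentile (grey) of the 10297 tested genes. At Zt +6 the span runs from -0.46 to 1.37 and only *Nr3c1* and *Mt1* lie outside it, while in WT over time *Zbtb16*, *Tsc22d3* and *Nr3c1* lie below the span of -0.60 to 0.48 and *Mt1* above it.

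The level of the whole table moved between groups, so the values were also read relative to the median difference of tested genes. On that scale at Zt +6, *Nr3c1* was 0.92, *Zbtb16* 0.68, *Nr3c2* 0.64, *Tsc22d3* 0.33 and *Cdkn1a* 0.19 above the median. *Fkbp5* was -0.20, *Sgk1* -0.53, *Mt2* -0.73 and *Mt1* -1.47 from it. At Zt +16 the metallothioneins were each 0.58 above the median, *Sgk1* 0.35 and *Tsc22d3* 0.27, and *Nr3c2* was lowest at -0.39. Over time in WT, *Zbtb16* was -1.27 and *Tsc22d3* -0.99 from the median, with *Mt1* at 0.87. In *Snord116del* over time, *Zbtb16* was at -2.24, *Nr3c1* at -1.70 and *Nr3c2* at -1.57, with *Mt1* at 2.90. Scaling the groups to the same median moved the median of all tested genes by -0.63 at Zt +6 and -0.34 at Zt +16.

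Differences in the table ran with transcript length, and the longest and shortest of these genes lay at the ends of that trend. The longest annotated transcripts were 631 bases for *Mt1* and 556 for *Mt2*, 1910 for *Cdkn1a*, 2876 for *Tsc22d3*, 3096 for *Sgk1*, 3484 for *Pdk4*, 3858 for *Fkbp5*, 5100 for *Zbtb16*, 5916 for *Nr3c2* and 6436 for *Nr3c1*. Across the 10165 tested genes with a length, Spearman's rho between length and the log2 difference was 0.63 at Zt +6, -0.38 at Zt +16, -0.49 over time in WT and -0.62 over time in *Snord116del*. Across the 10 genes it was 0.84, -0.70, -0.61 and -0.82. Genes are not independent replicates, and all points of a comparison share the same libraries. At Zt +6 the 730 tested genes with transcripts under 1000 bases had a median of -0.46, and the 1964 over 5000 bases had a median of 1.15.

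After the trend with length was taken out, none of the 9 genes passed the fold rule in either comparison of genotypes. Of all genes with a length, 26.1% passed it at Zt +6 and 1.71% at Zt +16. *Nr3c1* was then 0.39, *Nr3c2* 0.16 and *Zbtb16* 0.30 at Zt +6, and *Mt1* was -0.36. Over time in WT, *Tsc22d3* at -1.03 and *Zbtb16* at -1.10 still passed it, where 10.1% of all genes with a length did. Over time in *Snord116del*, *Zbtb16* (-1.59), *Cdkn1a* (-1.25), *Tsc22d3* (-1.18), *Nr3c1* (-0.77) and *Nr3c2* (-0.73) stayed lower and *Mt1* (1.13) stayed higher. In that comparison 49.7% of the 10165 genes still passed the rule, 2525 of them lower and 2527 higher. The part of transcript length in these results was not tested beyond this.

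**Figure D3:**
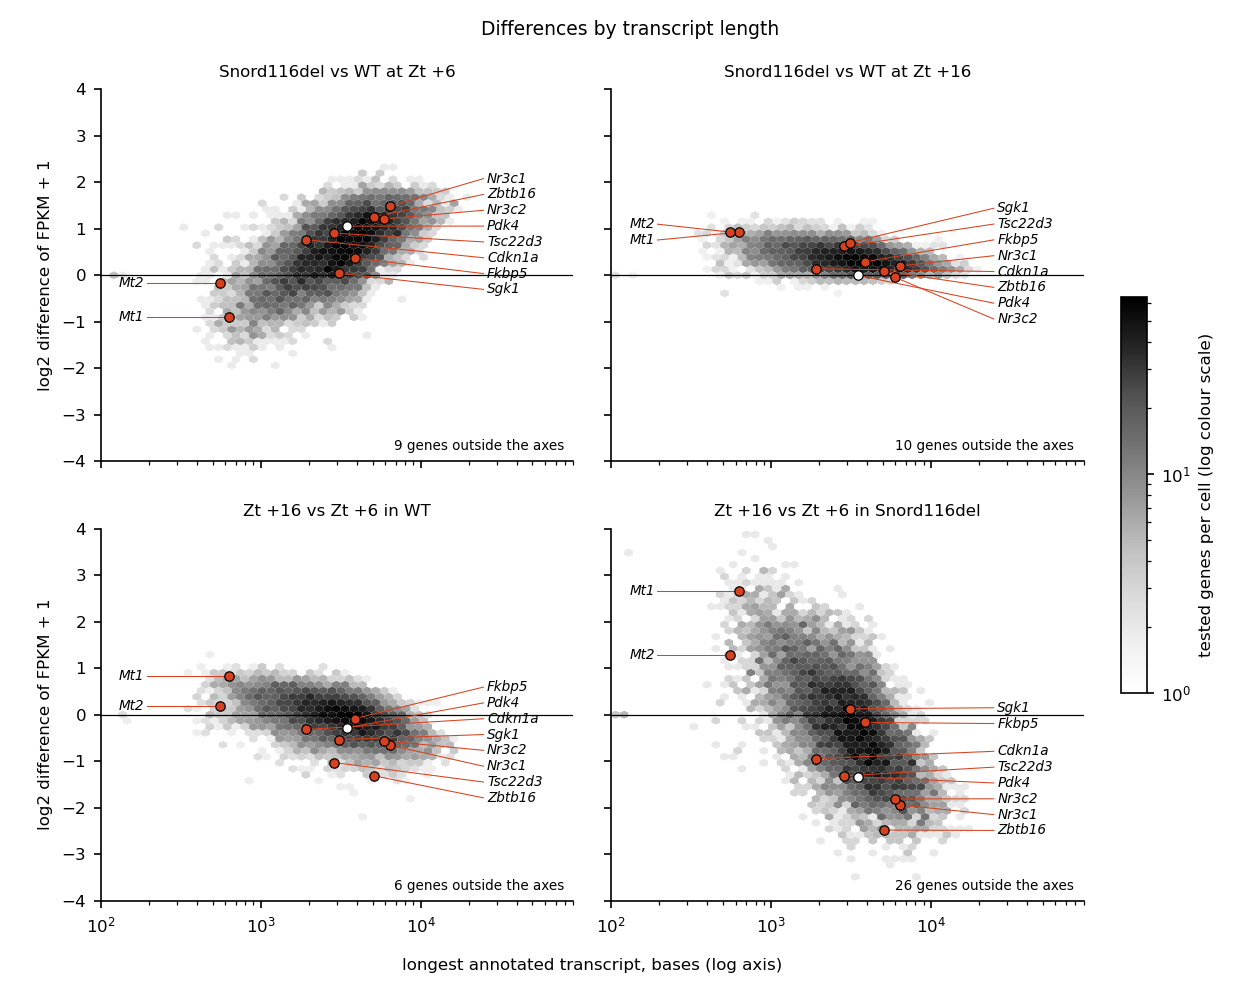
Log2 difference of FPKM + 1 against the length of the longest annotated transcript (log axis) in the 4 comparisons, with the 10165 tested genes as grey cells and the 10 genes as labelled points (*Pdk4* open, under the minimum). Long transcripts such as *Nr3c1* lie high at Zt +6 and low over time, where the short *Mt1* and *Mt2* do the reverse, and in WT over time *Zbtb16* and *Tsc22d3* lie at the lower edge of the cloud at their length.

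Other genes known to be induced by glucocorticoids were read from a list of 38, of which 29 passed the minimum. At Zt +6, 11 were higher and 4 lower in *Snord116del*, beside 49.3% and 7.62% of all tested genes, with a median of 0.33 against 0.57. *Mertk*, a phagocytic receptor kinase, had 1.52 FPKM in WT and 10.5 in *Snord116del* (2.19), *Klf9*, a zinc finger regulator, had 3.02 and 12.7 (1.77), and *Tiparp*, an ADP-ribosyltransferase, had 1.07 and 5.15 (1.57). The lower genes were led by *Gadd45g* (18.2 and 6.41 FPKM, -1.37), the mTOR inhibitor *Ddit4* (11.8 and 4.74, -1.16) and the NF-kappaB inhibitor *Nfkbia* (8.76 and 4.16, -0.92). At Zt +16, 7 were higher and 0 lower, beside 19% and 0.204% of all, with a median of 0.28 against 0.35. They were led by *Gadd45g* (0.85), the protease *Htra1* (0.75) and the lipid transporter *Mfsd2a* (0.68).

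Over time in WT, 2 of the 29 were higher and 4 lower, beside 5.71% and 10.3% of all tested genes, with a median of -0.06 against -0.04. *Klf9* went from 3.02 to 0.777 FPKM (-1.18) and the clock gene *Per1* from 9.89 to 4.03 FPKM (-1.12), with *Mertk* at -0.99, while *Mfsd2a* went from 6.43 to 13.2 FPKM (0.94) and *Htra1* from 17.9 to 27.8 FPKM (0.60). In *Snord116del* over time, 9 were higher and 11 lower, beside 25% and 39.1% of all, with a median of 0.30 against -0.24. *Mertk* (-2.98), *Klf9* (-2.84) and *Tiparp* (-2.21) had the largest falls, and *Gadd45g* (2.02), *Ddit4* (1.86) and *Nfkbia* (1.71) the largest rises. Calls among these genes thus ran in both directions in 3 of the 4 comparisons.

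The chaperones and cofactors that hold the receptor ready and act with it on chromatin were all 24 above the minimum. At Zt +6, 16 were higher and 1 lower, beside 49.3% and 7.62% of all tested genes, with a median of 1.18 against 0.57. The acetyltransferase *Ep300* had 3.52 FPKM in WT and 14.5 in *Snord116del* (1.78), the HSP90 co-chaperone p23 gene *Ptges3* had 14.0 and 43.3 (1.56) and *Crebbp* had 5.31 and 17.5 (1.55). *Dnajb1*, a heat shock co-chaperone with 23.4 and 11.7 FPKM, was lower (-0.94). At Zt +16, 2 were higher, beside 19% of all, *Dnajb1* (0.89) and *Fkbp4* (0.71), which encodes FKBP52, the counterpart of FKBP51 in the receptor complex. Their median of 0.36 was close to the 0.35 of all tested genes. Over time, 4 were lower in WT, led by the corepressor *Ncor1* (9.79 to 3.81 FPKM, -1.17), and 16 were lower and 2 higher in *Snord116del*, led by *Ep300* (-2.37), *Crebbp* (-2.36) and the nuclear pore protein gene *Tpr* (-2.09). Of all tested genes, 10.3% were lower in WT, and 39.1% were lower and 25% higher in *Snord116del*. The median transcript of this list was 5999 bases long, against 3085 for all tested genes, and without the length trend its median at Zt +6 was 0.14.

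Of the 8 genes for corticosteroid metabolism and transport, 3 passed the minimum. *Hsd11b1*, which regenerates active hormone from its inert form, had 5.00 and 5.96 FPKM at Zt +6 and 5.09 and 6.85 FPKM at Zt +16, and none of its differences passed the rule. *Abcb1a*, the efflux pump that keeps corticosteroids out of the brain, had 1.10 and 4.73 FPKM at Zt +6 (1.44) and 0.551 and 0.728 FPKM at Zt +16. *Srd5a1*, a steroid reductase, had 1.29 and 2.53 FPKM at Zt +6 (0.62). The enzyme gene *Hsd11b2*, which shields the mineralocorticoid receptor in kidney, stayed at or under 0.132 FPKM.

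The paralogs of these genes showed how far a family moved together. *Mt3*, the metallothionein of the brain, had 82.2 and 111 FPKM in WT and *Snord116del* at Zt +6, and 77.4 and 79.5 FPKM at Zt +16. None of its 4 differences passed the rule, unlike *Mt1*, and *Mt4* stayed at or under 0.722 FPKM. Of the pyruvate dehydrogenase kinases at Zt +6, *Pdk1* (0.77), *Pdk2* (0.86) and *Pdk3* (0.72) were each higher in *Snord116del*, as was the untested value of *Pdk4*. *Sgk2* and *Sgk3* were under the minimum, with 0.482 FPKM of *Sgk3* in WT and 1.38 in *Snord116del* at Zt +6. *Tsc22d1* was higher in *Snord116del* at both times (0.59 and 0.59), *Tsc22d2* was higher at Zt +6 (1.21), and *Tsc22d4* passed the rule in no comparison. Of all 16 paralogs tested, 7 were higher and 0 lower in *Snord116del* at Zt +6, beside 49.3% and 7.62% of all tested genes, with a median of 0.46 against 0.57. At Zt +16, 7 were higher and 0 lower, beside 19% and 0.204%, with a median of 0.41 against 0.35. Over time 1 was higher and 2 lower in WT, beside 5.71% and 10.3%, where *Fkbp2* was 0.78 and *Zbtb20*, a relative of *Zbtb16*, was -1.12. In *Snord116del* 4 were higher and 5 lower, beside 25% and 39.1%, and *Zbtb20* was -2.21.

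Genes that share a regulator with *Mt1*, *Pdk4* or *Cdkn1a* were read in the same way. Of 9 metal response genes, 7 were higher at Zt +6, beside 49.3% of all tested genes, and the MTF1 gene *Mtf1* had 0.927 FPKM in WT and 2.65 FPKM in *Snord116del* (0.92). The largest differences were those of the zinc importer *Slc39a10* (1.80) and of the glutathione synthesis genes *Gclm* (1.17) and *Gclc* (0.99), and the list median was 0.91 against 0.57. Without the length trend the list median was -0.18 and *Mtf1* was -0.26. *Mt1* at -0.36 had the same sign as *Mtf1*, and *Mt2* at 0.43 had the opposite one. At Zt +16 none of the 9 passed the rule in either direction, beside 19% higher and 0.204% lower of all tested genes. *Txnrd1*, a thioredoxin reductase, was higher at the later time in WT (0.79) and in *Snord116del* (1.11). Of the 7 tested genes of the FoxO and PPAR fasting programme, 4 were higher at Zt +6, beside 49.3% of all, led by *Foxo3* (1.77), *Irs2* (1.63) and *Ppargc1a* (1.42). At Zt +16, 0 were higher, beside 19%. Of the 7 tested genes of p53 and its targets, 4 were higher and 1 lower at Zt +6, beside 49.3% and 7.62% of all, where *Mdm2* was 0.90 and *Bbc3* was -0.66. Of these, 0 changed at Zt +16, beside 19% higher and 0.204% lower. With so few genes in each list, counts of 0 are not far from those shares.

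**Figure D4:**
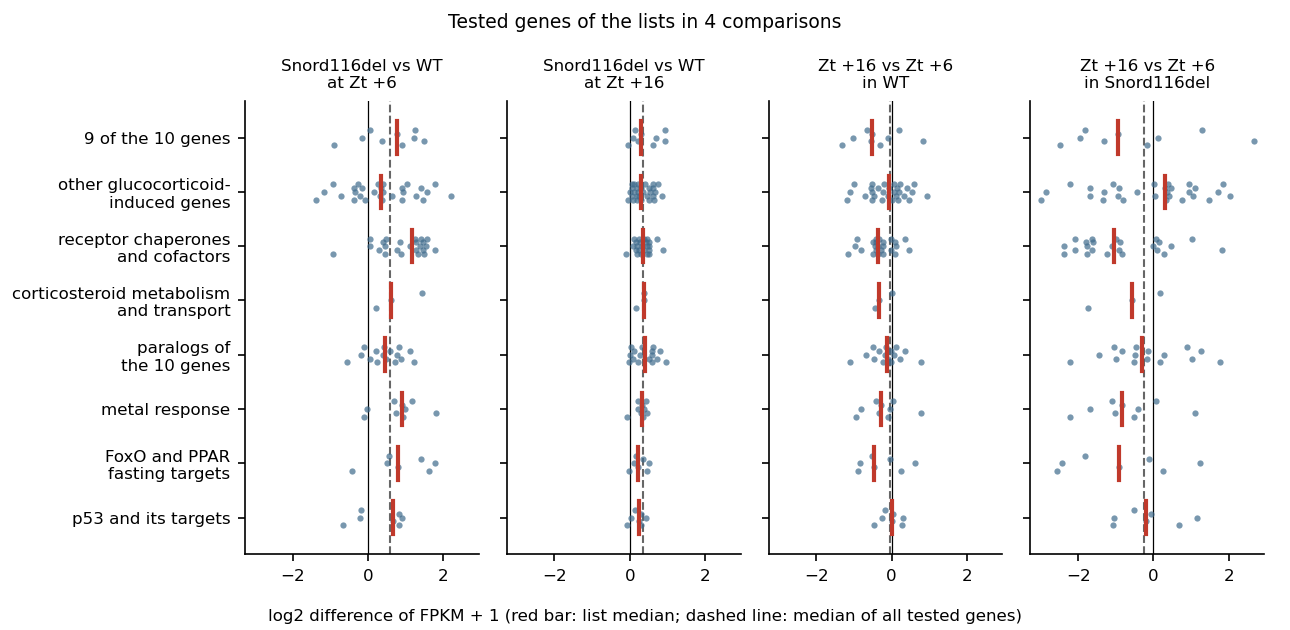
Log2 differences of FPKM + 1 of the tested genes of 8 lists in the 4 comparisons, 1 point per gene, with the list median in red and the median of the 10297 tested genes dashed. At Zt +6 the chaperones and cofactors centre on 1.18, right of the median of 0.57, and the other glucocorticoid-induced genes on 0.33, left of it, with members on either side of 0.

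*Fkbp5*, *Sgk1* and *Nr3c1* were compared with every tested gene for the likeness of their profiles over the 4 groups. The nearest profiles to *Fkbp5* were those of *Rpap3*, *Zfp239* and *Coq10b*, at root mean square distances of 0.00807, 0.00875 and 0.014 on the centred log2 scale. For *Sgk1* they were *Coro1a*, *Rtn2* and *March9*, at 0.0248, 0.0408 and 0.0505. For *Nr3c1*, *Tet2* at 0.00786 and *Fndc3a* at 0.0134 were among the nearest, both highest in *Snord116del* at Zt +6. The nearest of the other 9 genes lay further off, *Sgk1* from *Fkbp5* at 0.19 and *Nr3c2* from *Nr3c1* at 0.14. With 4 points a profile, many genes come close.

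The tissue label was checked against marker lists, and all 9 neuron, 9 astrocyte and 10 oligodendrocyte markers were above 0 FPKM in each group. Summed choroid plexus markers were 204 and 188 FPKM in WT and *Snord116del* at Zt +6 and 26.8 and 32.0 FPKM at Zt +16, of which *Ttr* made up 199.8, 182, 24.9 and 29.6 FPKM, and all 7 were above 0. Endothelial and mural markers, all 10 above 0, summed to 17.0 and 52.99 FPKM at Zt +6 and 9.08 and 12.6 FPKM at Zt +16, the same order of groups as *Nr3c1* and *Tsc22d3*. Blood markers summed to 280.0 and 327 FPKM at Zt +6 and 1082 and 1159.6 FPKM at Zt +16, with *Hba-a1* listed at 0 in each group. The sums for neurons ran from 648 to 1088 FPKM, for astrocytes from 387 to 814, for oligodendrocytes from 509 to 1146 and for microglia from 78.0 to 166. *Aldoc* carried most of the astrocyte sum in WT at Zt +6 (275 FPKM) and in *Snord116del* at Zt +16 (713 FPKM). In *Snord116del* at Zt +6 the highest astrocyte marker had 261 FPKM of a sum of 581 FPKM. Of the 9 astrocyte markers, 8 were higher in *Snord116del* at Zt +6, beside 49.3% of all tested genes (median 1.13 against 0.57). Over time 5 were lower in WT, beside 10.3% (-0.82 against -0.04), and 6 in *Snord116del*, beside 39.1% (-1.71 against -0.24), with 1 higher in each. These are the directions of *Nr3c1*, *Zbtb16* and *Tsc22d3*. Without the length trend the medians were 0.51, -0.32 and -0.79. Of the 7 tested endothelial and mural markers, 7 were higher at Zt +6, beside 49.3% of all tested genes. Over time 2 were lower in WT, beside 10.3%, and 7 in *Snord116del*, beside 39.1%. Without the length trend the medians of these markers were 0.57, -0.28 and -1.08. The part of these cell types in the results was not tested. *Snord116* itself was listed at 0 in all 4 groups and checks no label, and *Ipw*, a non-coding RNA of the same imprinted locus, had 21.6 and 3.40 FPKM at Zt +6 and 3.17 and 1.82 FPKM at Zt +16.

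The *116HG* ChIRP peaks at these genes were taken from 2 WT libraries and 3 control libraries, which are *116HG* oligos on *Snord116del* brain and non-specific oligos (NSC) on WT and *Snord116del* brain. The peak list of WT replicate 1 had a peak within 2 kb of all 10 genes, where 59.3% of the 21853 table genes with a place in the annotation had one, as did 93.6% of the tested genes. Replicate 2 had peaks at 4 genes (*Fkbp5*, *Sgk1*, *Nr3c2* and *Mt1*), where 13.9% of genes did. In the control lists 1 peak lay at these genes, in the NSC library of *Snord116del* brain, within *Zbtb16*. That list, of 3418 peaks, had a peak at 7.88% of genes. The NSC list of WT brain (3648 peaks) had one at 2.30%, and the *116HG* list of *Snord116del* brain (1280 peaks) at 2.26%. The WT *116HG* lists were longer, with 78033 peaks in replicate 1 and 11145 in replicate 2. Replicate 1 peaks with a replicate 2 peak within 10 kb lay at 3 genes, *Fkbp5*, *Mt1* and *Mt2*, where 10.9% of genes had such a peak. Among the tested genes that share was 18.03%.

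Most replicate 1 peaks at these genes lay over exons. Of 65 such peaks, 54 overlapped an annotated exon, among them all 15 at *Nr3c1*, 8 of 9 at *Nr3c2*, 4 of 5 at *Fkbp5*, 5 of 7 at *Sgk1*, all 4 at *Tsc22d3*, 9 of 16 at *Zbtb16* and all 3 at each of *Mt1* and *Mt2*. Of the 6 replicate 2 peaks, 0 had their middle in an exon, against 52 of the 65 replicate 1 peaks. The exon share was not counted over the whole peak lists, so whether it is particular to these genes is unknown. The highest fold over input, a ratio given by the authors for each replicate 1 peak, was 348 at *Mt1*, 298 at *Zbtb16* (a peak just before its annotated start), 267 at *Tsc22d3*, 246 at *Mt2* and 123 at *Sgk1*, and at the other 5 genes it ran from 41.0 to 82.1. The *Mt1* value was higher than that of 94.9% of the 9517 tested genes with a replicate 1 peak. Across the 10 genes the highest fold ran with the WT level at Zt +6, with a Spearman's rho of 0.88, and across those 9517 genes with a rho of 0.56. All points come from 1 ChIRP library and 1 FPKM column, and how transcript level enters the peak height was not tested.

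**Figure D5:**
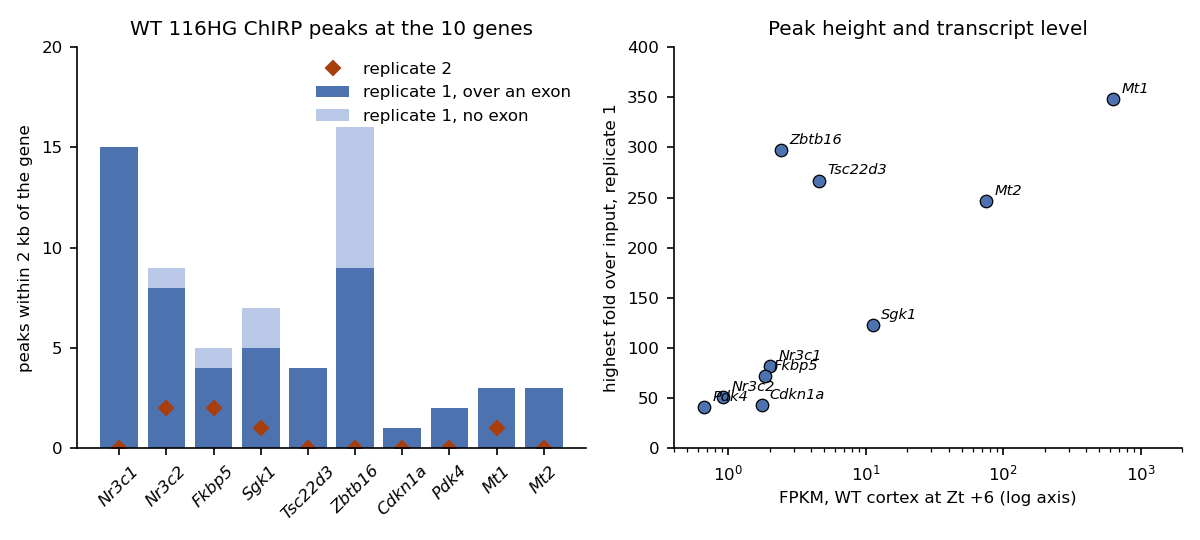
Left, number of WT *116HG* ChIRP peaks within 2 kb of each gene, as bars for replicate 1 split by overlap with an exon and diamonds for replicate 2. Right, highest fold over input of a gene's replicate 1 peaks against its WT level at Zt +6 in FPKM (log axis), where *Mt1* is highest on both axes and *Pdk4* and *Nr3c2*, the least abundant, have peaks of 41.0 and 51.3.

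Replicate 1 sequences under peaks that recurred between replicates are shown, read from NCBIM37, the assembly of mm9, along the strand of the gene. At *Fkbp5* the recurring pair lay in an intron on the minus strand, 1.83 kb apart, and the replicate 1 peak is at chr17:28613372-28613522. At the metallothioneins all replicate 1 peaks counted as replicated through a single replicate 2 peak downstream of *Mt1*, which lay 0.457 kb from the nearest *Mt1* peak and 7.22 kb from the nearest *Mt2* peak. The middle replicate 1 peaks, chr8:96703709-96703800 at *Mt1* and chr8:96696943-96697098 at *Mt2*, each overlap a coding exon, and capitals mark annotated coding bases.
*Fkbp5*, replicate 1: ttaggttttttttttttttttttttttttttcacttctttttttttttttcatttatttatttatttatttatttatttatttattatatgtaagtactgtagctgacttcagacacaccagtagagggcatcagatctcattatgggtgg
*Mt1*, replicate 1: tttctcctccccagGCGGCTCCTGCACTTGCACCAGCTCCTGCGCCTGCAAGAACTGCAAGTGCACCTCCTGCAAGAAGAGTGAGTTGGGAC
*Mt2*, replicate 1: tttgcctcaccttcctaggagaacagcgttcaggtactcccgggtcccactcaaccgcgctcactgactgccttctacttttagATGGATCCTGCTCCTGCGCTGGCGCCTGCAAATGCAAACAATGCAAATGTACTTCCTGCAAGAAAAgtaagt
The *Fkbp5* intron peak carries no coding base, and its fold over input was 36.8, the lowest of the 5 at that gene. The *Mt1* and *Mt2* peaks had folds of 277 and 113, with 78 coding bases of 92 in the *Mt1* peak and 66 of 156 in the *Mt2* peak, whose middle lies in the intron.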

How the data were processed

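RNA-seq was read for 9 cortex libraries as 4 group values, and ChIRP-seq as 5 peak lists, while the input library has no list. Per the labels, TopHat2 2.0.5 placed the RNA-seq reads on mm9, and the deposited FPKM are from Cuffdiff 2.0.2, 1 value per group and gene. Deposited columns with the authors' fold change, q-value and call for *Snord116del* against WT were not used. For the peaks the authors aligned with Bowtie2 2.0.0, called each library with MACS 1.4.2 and left out those with a fold of 20 or less or a false discovery rate of 5% or more. The fold over input in the deposited lists is a ratio, and the list of WT *116HG* replicate 2 holds positions only. The files give no read counts, so no interval or limit from depth is given, and p-values are absent because each group has 1 value.

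The pseudocount was 1 FPKM, and the minimum was a mean of 1 FPKM over the 4 groups. Symbols were matched to GENCODE genes on NCBIM37 (mm9), and promoters came from RefSeq (GRCm38.p6). The length trend was a lowess curve (fraction 0.3) of the log2 difference on log transcript length. The 10 genes and all lists were chosen with earlier results of these data known. Genes named are these 10, the largest 3 rises and 3 falls past the fold rule in each list, the paralogs of *Mt1*, *Pdk4*, *Sgk1* and *Tsc22d3*, and the 3 genes nearest in profile to *Fkbp5*, *Sgk1* and *Nr3c1*. Of the last, 1 is not reported here. *Hsd11b1*, *Hsd11b2*, *Ipw* and single markers were named after their values were seen. The code of the fold rule was checked on simulated data for the Zt +6 comparison over 10297 genes. The rule recovered 100% of 200 genes changed 3-fold and called 0% of the others, which checks the code only. Recovery after the length correction was not tested. The software was matplotlib 3.10.9, statsmodels 0.14.6, scipy 1.17.1, pandas 2.3.3 and numpy 2.4.6 under Python 3.11.15.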

Additional observations from a re-analysis of the deposited data

Results flagged for a closer look

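*Mt1* was marked because its genotype difference went in opposite directions at the 2 times. *Snord116del* cortex was below WT at Zt +6, by a log2 difference of -0.90, and above WT at Zt +16, by 0.93. After quantile normalization the values were -0.15 and 0.12, and without the length trend -0.36 and 0.30, neither past the fold rule, and at Zt +16 the call was also lost with the same median (0.46) and the same total (0.27). Each group has 1 value for 2 or 3 mice, and the difference between the times was not tested.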

How the results depend on the processing

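No paired analysis was possible because the table holds no value per mouse, and for the same reason no mouse could be left out of the RNA-seq comparisons. Of 264 values of single genes under alternative settings, 206 kept their side of the fold rule, 48 fell under the rule, 7 passed it and 3 turned sign into or out of a call. Of the 206, 176 also kept their sign and 30 turned sign without a call, 12 of these of *Fkbp5* and 16 of them at Zt +16 between genotypes, where *Fkbp5*, *Cdkn1a*, *Zbtb16* and *Nr3c1* each did so under 4 settings. The 3 were *Sgk1* at Zt +6 with the same median (-0.72), *Sgk1* over time in *Snord116del* with the same total (-0.88), and *Mt2* over time in *Snord116del* without the length trend (-0.34). *Tsc22d3* and *Zbtb16* over time passed the rule in both genotypes under each alternative that tested them. Counts of the genes that changed moved by over 1.5 times as follows. At Zt +6, 6 changed, where 56.9% of all tested genes did. With a minimum of 5 FPKM, which leaves 3 genes to test, 1 did (52.9% of all). With a 2-fold rule 3 did (29.7%), after quantile normalization 3 (42.8%), of which 3 higher and 0 lower, and without the length trend 0 (26.1%). The same median gave 5 (39.5%), with 2 higher and 3 lower. At Zt +16, 4 changed (19.2% of all). With a 2-fold rule, the same median, quantile normalization, the same total or no length trend, 0 did. Under these settings only 0.893% to 1.74% of all tested genes changed, so the loss of calls was not particular to these genes. Over time in WT, 4 changed (16.0% of all), and 1 did with a minimum of 5 FPKM (22.1%). There were 2 each with a 2-fold rule (2.79%), quantile normalization (11.8%) and no length trend (10.1%). Over time in *Snord116del*, 7 changed (64.0% of all), and 2 did with a minimum of 5 FPKM (68.3%) and 4 after quantile normalization (58.4%). Among all tested genes at Zt +6, the share of calls that were higher went from 86.6% to 38.1% with the same median, 51.9% after quantile normalization and 48.4% without the length trend. At Zt +16 it went from 98.9% to 23.9% with the same total. The 3 genes with a replicated peak, where 10.9% of genes had one, became 6 within 50 kb, where 27.1% did. They became 2 within 2 kb (*Fkbp5* and *Mt1*), where 5.41% did. In the upper quartile of the fold they were 2 (*Mt1* and *Mt2*), where 5.39% did. With only 1 of the replicates the number ran from 4 (without replicate 1, 13.9%) to 10 (without replicate 2, 59.3%). The cause of these shifts was not tested.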
